A study of Mus musculus with 20 samples.

Results

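The Hoxb cluster is 1 of the 4 mammalian Hox clusters and holds 10 homeobox genes, from Hoxb13 at one end to Hoxb1 at the other. It is described here by the peaks of 4 histone marks that overlap chr11:96040000-96240000 of the mouse build mm9, the 200-kb window that runs from Hoxb13 to Hoxb1. The rule uses position alone and no measured value. It selected 224 of the 218887 peaks on chromosomes 1 to 19, X and Y in the 8 deposited lists.

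Hox genes encode transcription factors that give cells their position along the body axis, and they are switched on in the order in which they lie on the chromosome. In cells where they are silent, Polycomb complexes mark them with H3K27me3 over long stretches. Where they are active, Trithorax-type methyltransferases place H3K4me3 at their promoters and H3K27ac marks active promoters and enhancers. H3K4me1 is found at enhancers and around promoters. Several Hoxb genes are known for their part in blood formation: Hoxb4 expands stem cells when overexpressed, Hoxb5 marks long-term repopulating cells, and Hoxb8 blocks myeloid differentiation when overexpressed.

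Hematopoietic stem cells (HSCs) of the strain B6129SF1 were sorted as Lin-Sca1+cKit+CD135- cells from the fetal liver at embryonic day 14.5 and from the bone marrow of adults aged 6 to 8 weeks. The sort removes differentiated blood cells, and it leaves stem cells together with early progenitors that share these surface markers. Chromatin immunoprecipitation from 50000 cells was followed by sequencing (ChIP-seq), with 2 replicates for each mark and stage. The deposited lists hold 1 pooled call per mark and stage, so no value below has a replicate error, no test between the stages was possible and no p-value is given. Where a list has a mark at one stage and not at the other, a change in the cells and a difference in the library or peak call cannot be told apart.

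In the RefSeq gene table of GRCm38.p6 all 10 members were found, and they start along the chromosome in the order Hoxb13, Hoxb9, Hoxb8, Hoxb7, Hoxb6, Hoxb5, Hoxb3, Hoxb4, Hoxb2 and Hoxb1. That table also lists 2 miRNA genes inside the cluster, Mir196a-1 between Hoxb13 and Hoxb9 and Mir10a within the entry of Hoxb3. Its coordinates are of another build than the peaks. No peak was therefore assigned to a gene, and the stem cell markers of the sort were not checked. Positions are mm9, counted from 1. The Hoxb13 end is the end with the lower coordinates and the Hoxb1 end the one with the higher.

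Sequences of cluster genes are shown because H3K4me3 and Polycomb marks are both known to lie on DNA rich in CpG, the dinucleotide CG. The RefSeq promoter table (GRCm38.p6, 250 bases before to 50 after the start, plus strand) matched 3 of the 10 members, Hoxb8, Hoxb4 and Hoxb1, and did not match Hoxb2, Hoxb3, Hoxb5, Hoxb6, Hoxb7, Hoxb9 and Hoxb13. Capitals mark each CG, which reads the same on both strands.
Hoxb8: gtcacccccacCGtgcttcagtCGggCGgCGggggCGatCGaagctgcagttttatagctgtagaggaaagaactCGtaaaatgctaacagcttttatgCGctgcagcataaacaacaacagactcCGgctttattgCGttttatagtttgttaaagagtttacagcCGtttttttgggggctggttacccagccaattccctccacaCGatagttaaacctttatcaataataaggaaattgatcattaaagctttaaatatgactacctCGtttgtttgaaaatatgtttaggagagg
Hoxb4: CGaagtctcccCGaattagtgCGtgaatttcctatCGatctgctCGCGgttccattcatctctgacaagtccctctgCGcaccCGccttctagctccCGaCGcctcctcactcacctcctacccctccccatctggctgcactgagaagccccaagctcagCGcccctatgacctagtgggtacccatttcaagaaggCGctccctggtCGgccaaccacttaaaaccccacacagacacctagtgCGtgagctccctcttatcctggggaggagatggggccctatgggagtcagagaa
Hoxb1: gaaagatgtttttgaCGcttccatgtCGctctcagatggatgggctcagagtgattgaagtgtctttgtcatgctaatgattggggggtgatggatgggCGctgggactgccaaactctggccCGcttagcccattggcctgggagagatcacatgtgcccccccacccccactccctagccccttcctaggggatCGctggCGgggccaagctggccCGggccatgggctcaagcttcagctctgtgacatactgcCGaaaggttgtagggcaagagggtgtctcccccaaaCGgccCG
The Hoxb8 promoter held 13 CpG, that of Hoxb4 14 and that of Hoxb1 10, beside a median of 7.0 over the 32851 promoters of the table. At least as many CpG were found in 37.9%, 36.3% and 43.5% of all promoters, so these 3 are above the middle of the table and not at its extreme. The GC content was 42.3% for Hoxb8, 58.0% for Hoxb4 and 59.3% for Hoxb1, against a median of 52.7%.

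The miRNA genes are part of the same chromatin, and both are known to be expressed in patterns like those of the Hox genes around them. Their main mature products are given with the seed, bases 2 to 8, in capitals.
mmu-miR-196a-5p: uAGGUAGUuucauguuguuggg
mmu-miR-10a-5p: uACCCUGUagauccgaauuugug
The products have different seeds. miR-196a is known to direct cleavage of Hoxb8 mRNA, so that a product of the cluster acts on one of its genes.

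H3K27me3 was the dominant mark of the window at both stages. H3K27ac was nearly confined to a stretch of 17595 bp, which held all 6862 fetal bp and 7182 of 7995 adult bp of it. The stretch, defined below, was chosen from the fetal lists for active marks with little H3K27me3. Its share of the fetal active marks therefore follows in part from that choice. The same stretch held 10082 of 20178 fetal and 11713 of 21278 adult bp of H3K4me3, so that much of this mark lay elsewhere in the window. Fetal H3K27me3 covered 127227 bp, or 63.6% of the window, in 20 peaks. Adult H3K27me3 covered 59049 bp, or 29.5%, in 108 peaks. H3K4me3 covered 20178 bp (10.1%) in 16 fetal peaks and 21278 bp (10.6%) in 12 adult peaks, and was thus of similar length at both stages. H3K27ac covered 6862 bp (3.43%) in 3 fetal and 7995 bp (4.00%) in 5 adult peaks. For H3K4me1 the window held 53 fetal peaks over 26707 bp (13.4%) and 7 adult peaks over 1451 bp (0.726%).

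**Figure D1:**
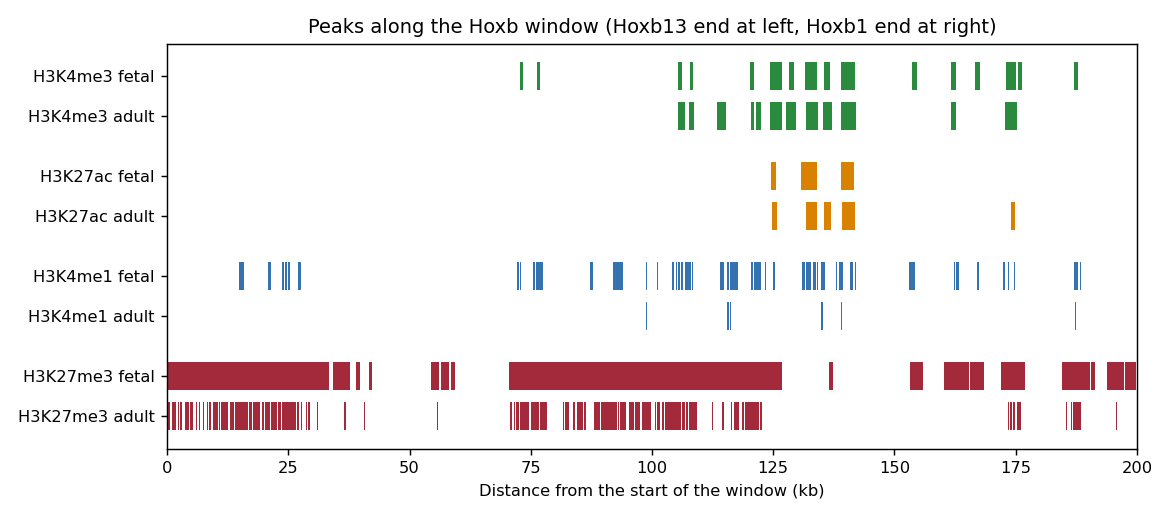
Peaks of the 4 marks at both stages, drawn to scale as bars along the window. The x axis is the distance from the window's start at the Hoxb13 end in kb. Dense H3K27me3 lies from 0 to about 33 kb and from 71 to 127 kb in the fetal list. In the adult list it lies in pieces within these stretches, up to 122.6 kb in the second. From 110 to 120 kb it is sparse there, with 2956 bp against 10000 bp in the fetal list. H3K27ac lies between 124 and 142 kb apart from 1 adult peak near 174 kb.

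Set beside the rest of each list, the window was extreme for H3K27me3 and not for H3K27ac. Among 13177 adjacent windows of the same length on chromosomes 1 to 19 and X, its covered length ranked 2 for fetal H3K27me3 and 3 for adult H3K27me3. It ranked 110 (top 0.835%) for fetal and 83 (top 0.630%) for adult H3K4me3. For H3K4me1 the ranks were 401 and 530. For H3K27ac they were 2598 (top 19.7%) and 1312 (top 9.96%). The median window held 0 bp of every mark except fetal H3K4me1, with 595 bp.

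The stages were compared as covered length, each beside the same ratio for the whole list. Fetal H3K27me3 was 2.15 times as long as adult H3K27me3 in the window and 4.10 times as long over the whole lists. The log2 ratio was 1.11 in the window and 2.04 genome-wide. For H3K27ac the log2 ratio was -0.22 in the window, against 0.59 genome-wide. With the better-scoring peaks alone the H3K27ac ratio in the window was 0.21, so its direction, which rests on 3 and 5 peaks, depends on the weaker ones. The log2 ratios of H3K4me3 were -0.08 and -0.02, and those of H3K4me1 were 4.20 and 4.35. In the window the H3K4me3 ratio was -0.87 with the better-scoring peaks alone and 0.18 with peaks merged within 5 kb. The adult H3K27me3 and H3K4me1 lists cover less total length than the fetal ones, and the part of list depth in the difference at the cluster was not tested.

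**Figure D2:**
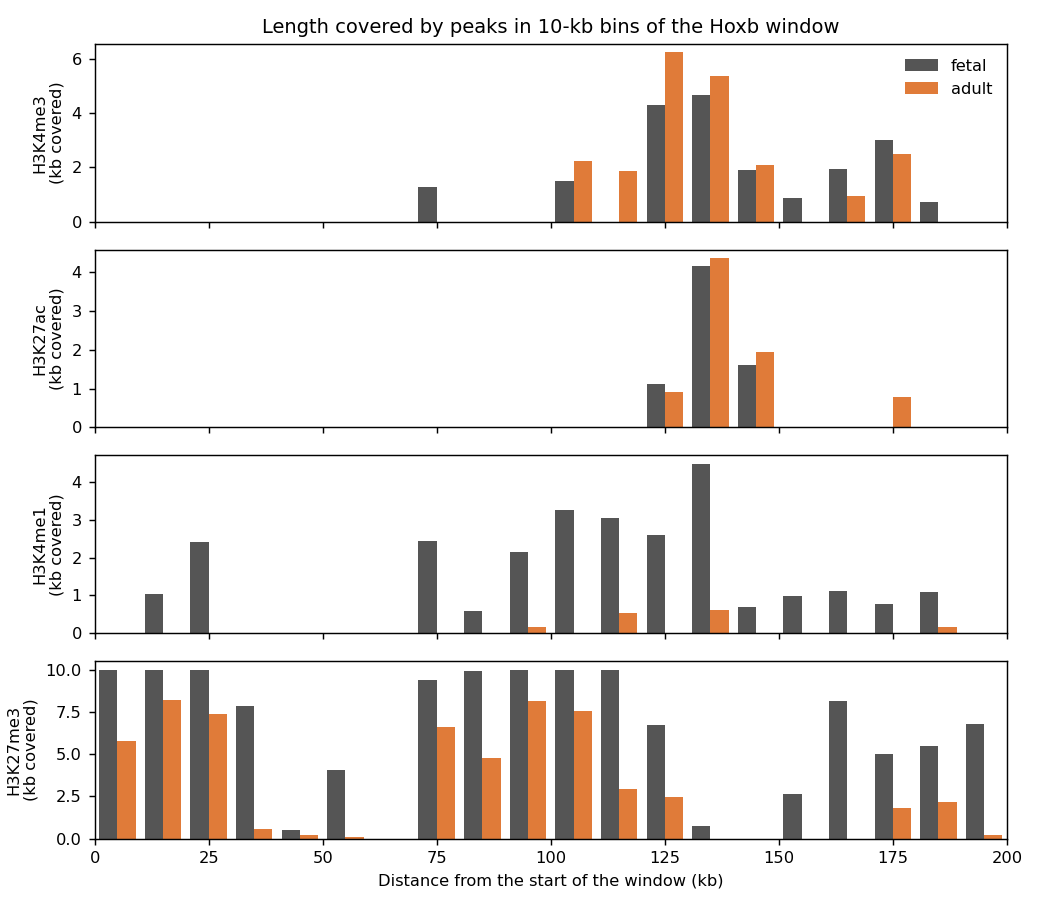
Length covered by peaks of each mark (kb, y axis) in 20 bins of 10 kb along the window (x axis, distance from its start in kb), with fetal bars in grey and adult bars in orange. Fetal H3K27me3 fills 6 bins completely, adult H3K27me3 stays below fetal in every bin that has either, and H3K27ac is found in 3 neighbouring bins plus 1 adult bin.

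Starting from the Hoxb13 end, a fetal H3K27me3 peak of 49193 bp, at 96023401-96072593, crossed the edge of the window. It was the widest fetal peak of the mark here. In the adult list 61 peaks covered 30475 bp, or 61.9%, of it, and the first adult peak of the window, at 96038556-96040646, was among them. Past it the mark thinned out at both stages. No H3K27me3, H3K4me3 or H3K27ac was listed in the fetal gaps of 12263 bp at 96082220-96094482 and of 11173 bp at 96099430-96110602. The adult list had gaps of 14861 bp and 14965 bp over the same places, divided by 1 peak of 123 bp.

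The second large Polycomb stretch began at 96110603 in the fetal list. Its first peak, of 16392 bp, had a score of 3100, a value reached by 544 peaks of that list, and its second peak spanned 39625 bp at 96127091-96166715. Adult peaks covered 59.3% of the former with 19 pieces and 57.6% of the latter with 33. The widest adult H3K27me3 peak of the window, 2282 bp at 96129448-96131729, and the adult peak with the highest score here, 1297.53 at 96143976-96146039, both lay in this stretch.

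Nearly all adult H3K27me3 lay within fetal H3K27me3, and more of the fetal length than not had no adult peak. Of 108 adult peaks 107 overlapped a fetal peak, and all 107 lay wholly inside one, against 92.4% overlapping over the whole list. Of the adult length, 99.6% was also covered in the fetal list (95.3% over the whole list). Conversely, 8 of 20 fetal peaks had an adult peak, or 40% beside 35.5% of the whole list, and 46.2% of the fetal length was covered in the adult list against 23.2% genome-wide, which left 68398 bp in the fetal list alone. Median widths were 2162 bp for fetal and 400 bp for adult peaks, beside 1406 and 278 bp over the whole lists. The narrower adult peaks were thus not particular to the window. Adult neighbours in the window were separated by a median of 153 bp. Joining peaks less than 1 kb apart left 11 fetal and 14 adult domains.

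The active stretch lay between this H3K27me3 domain and further H3K27me3 peaks toward the Hoxb1 end, which covered less of the sequence. The stretch with the most H3K4me3 or H3K27ac and the least H3K27me3 was located by maximising the difference of their lengths, a method chosen after the peaks had been seen. In the fetal lists it ran from 96164315 to 96181909 (17595 bp). H3K4me3 or H3K27ac covered 62.6% of it and H3K27me3 17.9%, beside 68.0% H3K27me3 in the rest of the window. The stretch was chosen for this contrast, which is therefore a description. In the adult lists the same search gave a longer interval, from 96162645 to 96215212 (52568 bp), with active marks over 29.2% and H3K27me3 over 2.09% of it. When the lower-scoring peaks were left out, the adult interval ended at 96182096, close to the fetal end. With H3K27ac alone as the active mark, the adult interval ran from 96162645 to 96181940 (19296 bp). The fetal one then ran from 96166716 to 96181602 (14887 bp). The fetal interval is used below as the active stretch for both stages.

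Within the stretch the H3K4me3 peaks of both stages matched each other closely, with 5 fetal and 5 adult peaks in the same places. The first fetal peak began 111 bp before the first adult peak, and the last ended 187 bp before it. The peak nearest to the Hoxb1 end, at 96178913-96181909 in the fetal and 96179065-96182096 in the adult list, had the score 3100 at both stages. It was the widest H3K4me3 peak of the window in both lists, with 2997 and 3032 bp. H3K27ac covered 84.4% of it in the fetal and 91.5% in the adult list, and neither list had H3K27me3 there.

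H3K27ac lay in 3 places shared by the stages and in 2 more in the adult list. The shared ones were at 96164564-96165672, 96170725-96173947 and 96179073-96181602 in the fetal list. Their adult counterparts were at 96164801-96165722, 96171759-96173966 and 96179167-96181940. The widest fetal H3K27ac peak here was the middle one, with 3223 bp, and the widest adult one the last, with 2774 bp. All 3 fetal peaks had an adult peak, beside 65.3% of the whole list, and 3 of the 5 adult peaks had a fetal one, beside 88.6%. The exact 95% intervals of these shares, 29.2 to 100% and 14.7 to 94.7%, are wide because so few peaks are involved, and they cover counting error only. An adult peak without a fetal counterpart lay inside the stretch, at 96175538-96176846 (1309 bp, score 186.03). The other lay toward the Hoxb1 end, at 96214077-96214858, with a score of 50.97 just above the list's minimum.

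The H3K27me3 edge on the Hoxb13 side lay near the first H3K4me3 peak of the stretch at both stages and differed in where it fell. This nearness follows in part from the choice of the stretch, which favoured active marks with little H3K27me3. H3K4me3 under H3K27me3 was also listed before this edge, as at 96160216-96160982 (fetal) and 96161525-96162528 (adult). Fetal H3K27me3 ended at 96166715, 2401 bp past the start of the first H3K4me3 peak of the stretch, so that 98.7% of that peak and all of its H3K27ac peak were also covered by H3K27me3. Adult H3K27me3 ended at 96162644, or 4071 bp earlier and 1781 bp before the adult H3K4me3 peak at 96164426-96166885, which carried none. In bulk cells, marks on the same nucleosomes and marks in different cells or on different alleles cannot be told apart.

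The H3K27me3 edge toward the Hoxb1 end lay farther from these 5 H3K4me3 peaks. Fetal H3K27me3 peaks narrower than 1000 bp were not taken as an edge. No such limit was applied to the adult list, whose edges lay on peaks of 429 and 326 bp. The limit left aside a fetal peak of 741 bp at 96176546-96177286. Its score of 52.75 was in the lowest part of its list (rank 14279 of 14823). The next fetal H3K27me3 began at 96193132. That was 11222 bp after the end of the last H3K4me3 peak of the stretch. In the adult list it began at 96213335, 31238 bp after it and 20203 bp farther than in the fetal list. The distance between H3K27me3 on either side was thus 26416 bp in the fetal and 50690 bp in the adult list. The adult distance was the longest stretch without H3K27me3 in that list's window. It also held the adult H3K4me3 peak at 96201728-96202679, and the adult H3K4me3 peak at 96212724-96215212 ran across its end, with H3K27me3 over 44.1% of it. If the peak of 741 bp is counted, the fetal distance is divided into 9830 and 15845 bp.

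**Figure D3:**
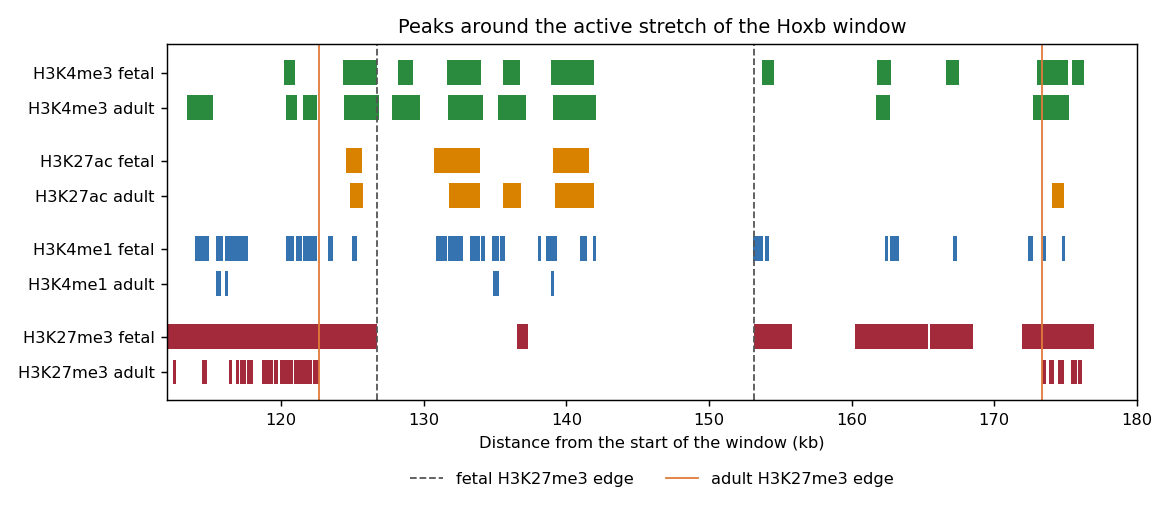
Enlarged view of the peaks around the active stretch (x axis, distance from the window's start in kb), 1 row per mark and stage, with dashed grey lines at the edges of fetal H3K27me3 and orange lines at those of adult H3K27me3. The edges on the left lie 4071 bp apart and those on the right 20203 bp apart. The fetal edges leave aside 1 peak of 741 bp, by a minimum width of 1000 bp that was not applied to the adult list.

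A single border was also sought, as the base with the most H3K27me3 on one side and the most active marks on the other. In the adult lists it was at 96162645, with H3K27me3 over 44.7% of the Hoxb13 side and 5.44% of the Hoxb1 side. H3K4me3 or H3K27ac covered 4.84% and 19.8% of these sides. In the fetal lists no such division was found, since the best point was 96239729, after the last H3K27me3 peak of the window. The best point depends on covered lengths. After the active stretch H3K27me3 covered 28074 bp in the fetal and 4206 bp in the adult list. The fetal result therefore does not show that a local border is lacking. In bins of 1 kb that held at least 100 bp of either kind, H3K27me3 was the longer in 134 fetal and 86 adult bins and the active marks in 15 and 25. The bins changed from one kind to the other 6 times along the window at each stage.

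The Polycomb domain on the Hoxb1 side differed more between the stages than that on the Hoxb13 side. Before the fetal stretch of active marks, H3K27me3 covered 77.2% of the sequence in the fetal and 44.1% in the adult list, a ratio of 1.75. After it, the shares were 48.3% and 7.24%, a ratio of 6.67, with the ratio of the whole lists, 4.10, between them. No test of this difference was possible with 1 list per stage.

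Between 96193132 and 96208519, 3 fetal H3K27me3 peaks had no adult peak at all. They were 2667, 5149 and 3006 bp wide, with scores of 367.82, 1329.68 and 418.02. The middle one was singled out after its values were seen. Of the 2260 fetal H3K27me3 peaks with a score at least as high, 96.9% overlapped an adult peak. For the scores of 367.82 and 418.02 the same shares were 78.8% and 81.5%. Over the whole fetal list 35.5% of the peaks overlapped an adult peak. The neighbouring fetal peak at 96211977-96216992, of 5016 bp and with a score of 1417.88, had 5 adult peaks over 36.4% of it. A fetal peak of 5917 bp at 96224523-96230439, with a score of 3100, had 4 adult peaks over 36.6%. The last peaks of the window were at 96239271-96239728 in the fetal and at 96235653-96235868 in the adult list.

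Promoter-type peaks along the cluster mostly carried H3K27me3 in the fetal list, the bivalent combination that is known from silent developmental genes. Of the 16 fetal H3K4me3 peaks 13 overlapped H3K27me3 (81.2%, exact 95% interval 54.4 to 96.0%), beside 22.3% of the whole list. In the adult list 6 of 12 did (50%, 21.1 to 78.9%), beside 12.9%. Fewer than usual carried H3K27ac, with 3 of 16 fetal peaks beside 74.2% and 5 of 12 adult peaks beside 75.7%. The length under both H3K4me3 and H3K27me3 was 12711 bp, or 63.0% of the fetal H3K4me3, and 5120 bp, or 24.1% of the adult H3K4me3. Over the whole lists these shares were 13.3% and 4.57%. The length rests on H3K4me3 peaks below the median score of their lists: it was 0 bp at both stages with the better-scoring peaks, and 25220 and 14065 bp with peaks merged within 5 kb. Neighbouring peaks of 1 cluster are not independent, and the intervals cover counting error only.

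The bivalent peaks lay on both sides of the active stretch. All 5 fetal H3K4me3 peaks on the Hoxb13 side and all 6 on the Hoxb1 side lay wholly within H3K27me3, while 3 of the 5 inside had none. In the adult list the 5 on the Hoxb13 side were covered for 17.8 to 95% of their length, the 5 inside had none, and of 2 on the Hoxb1 side 1 had none and 1 was covered for 44.1%. No fetal H3K4me3 peak outside the stretch carried H3K27ac, and 1 adult peak did. The stretch was chosen from the fetal lists for active marks with little H3K27me3. The fetal contrasts between inside and outside therefore follow in part from that choice.

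**Figure D4:**
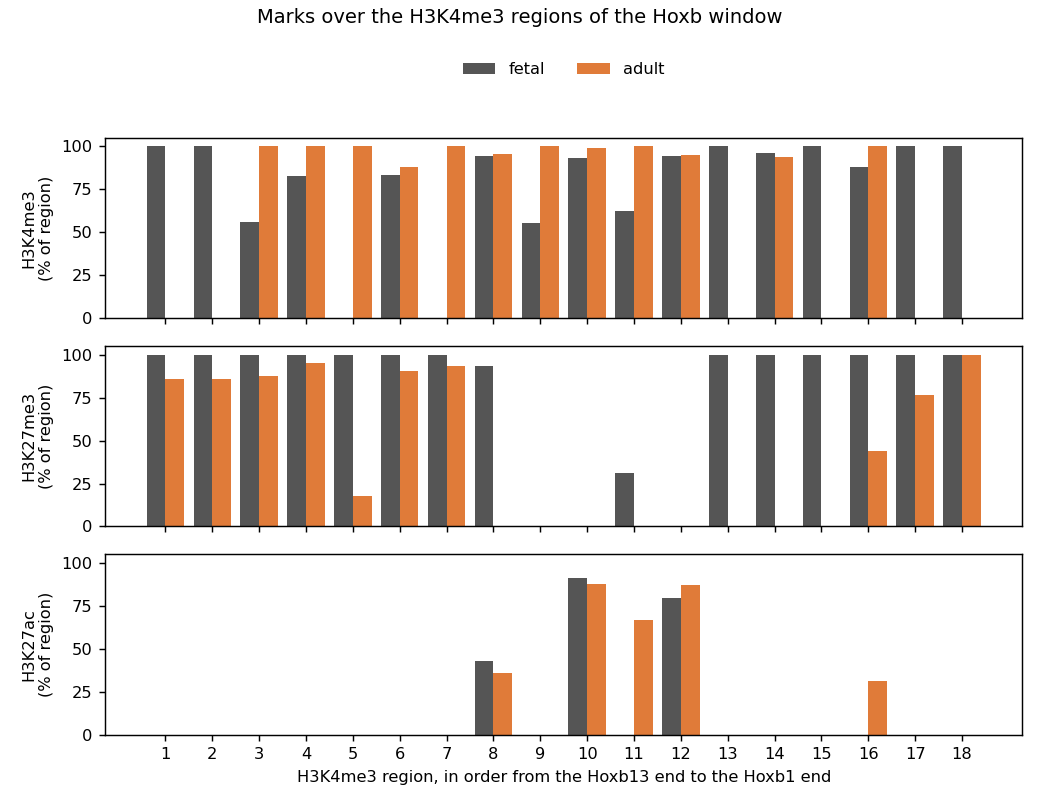
Share of each H3K4me3 region (merged peaks of both stages) covered by H3K4me3, H3K27me3 and H3K27ac (y axes, %) for the 18 regions in order from the Hoxb13 end (x axis), fetal in grey and adult in orange. H3K27me3 is at 0 in both lists over regions 9, 10 and 12, and H3K27ac is found in regions 8, 10, 11, 12 and 16.

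Merging the H3K4me3 peaks of both stages gave 18 regions. Of these 10 had a peak at each stage, 6 were fetal only and 2 adult only. Of the fetal peaks 10 of 16 (62.5%) had an adult counterpart and of the adult peaks 10 of 12 (83.3%) a fetal one. These shares stand beside 91.0% and 92.8% over the whole lists. All 6 fetal-only regions were wholly covered by fetal H3K27me3, and 4 of them had adult H3K27me3 over 76.5% to 100% of their length. The first and last fetal H3K4me3 peaks, at 96112684-96113360 and 96227037-96227761, were such regions, with low scores of 53.86 and 69.57. Full cover by fetal H3K27me3 was not particular to the fetal-only regions. They all lay outside the active stretch, where the fetal H3K4me3 peaks with an adult counterpart were also wholly covered. The same share over all fetal-only peaks of the whole list was not computed.

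Both adult-only regions, at 96153362-96155234 and 96161525-96162528, were covered whole by fetal H3K27me3. The former had an adult H3K4me3 score of 428.00 and adult H3K27me3 over 17.8% of it, and the latter a score of 93.94 and 93.2%. With them the adult H3K4me3 on the Hoxb13 side came to 5937 bp against 3556 bp in the fetal list, whereas on the Hoxb1 side it was 3628 bp against 6540 bp. The order of the stages was thus opposite on the 2 sides of the active stretch. This rests on weak peaks, since every H3K4me3 peak lying wholly outside the stretch scored below the median of its list. The adult length on the Hoxb1 side includes 187 bp of the last peak of the stretch. No test of the difference was possible with 1 list per stage.

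Of the regions with H3K4me3 at both stages, 4 had H3K27me3 in the fetal list and, in the adult list, either none of it or H3K27ac that was not listed in the fetal one. The region at 96164315-96166885 had fetal H3K27me3 over 93.4% and adult H3K27me3 over 0%, with H3K27ac over 43.1% and 35.9%. At 96175193-96177150 H3K27me3 covered 30.9% in the fetal list, from the weak peak of 741 bp alone, and H3K27ac covered 66.9% in the adult list alone. The region at 96201728-96202741 had H3K27me3 over its whole length in the fetal list and none in the adult list, and no H3K27ac at either stage. At 96212724-96215212 H3K27me3 covered 100% and 44.1%, and an adult H3K27ac peak lay over 31.4%. Of the other 6 regions, 3 had H3K27me3 and no H3K27ac at both stages, 2 had H3K27ac and no H3K27me3 at both, and 1, at 96167735-96169698, had neither.

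Fetal H3K4me1 was densest in the active stretch, where it covered 30.5% of the sequence, against 13.8% on the Hoxb13 side and 7.11% on the Hoxb1 side. Of its 26707 bp in the window, 80.4% lay under H3K27me3, which itself covered 63.6% of the window, and 13.4% lay under H3K27ac, which covered 3.43%. Over the whole list these shares were 7.81% and 43.7%. The first fetal peaks, from 96054771 on, lay within the H3K27me3 peak at the Hoxb13 end, where no H3K4me3 was listed. The fetal peak with the highest score, 621.06 at 96116047-96117468, and the widest, 1577 bp at 96156069-96157645, also lay within H3K27me3. The last was at 96228179-96228418.

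The 7 adult H3K4me1 peaks were 154 to 343 bp wide, and all overlapped a fetal peak, beside 87.4% of the whole adult list. Of the 53 fetal peaks 6 had an adult one, or 11.3%, beside 9.22% of the whole list. The adult peak with the highest score, 111.96, was also the widest and lay at 96155440-96155782. The first was at 96138713-96138867, and the last at 96227224-96227377 lay within H3K27me3. None lay under adult H3K27ac.

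Scores placed most promoter-type peaks of the cluster low in their lists. Only 1 of 16 fetal and 2 of 12 adult H3K4me3 peaks reached the median score of the list. The strongest had the score 3100, which 5515 fetal and 3992 adult peaks of the whole lists reached or passed. For H3K27me3, 11 of 20 fetal and 75 of 108 adult peaks reached it. For H3K27ac it was 2 of 3 and 2 of 5.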

How the data were processed

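ChIP-seq peaks of 4 histone marks in fetal and adult HSCs were taken from 8 deposited lists, each called on 2 pooled replicates, as the word combined in its title implies. Reads were aligned with Bowtie2 2.2.2 to mm9, per the submitters' processing notes. Peak names begin with MACS, per the deposited lists. Version, settings, control and read depth are not given in the sources used here. The score of each peak is the authors' own value without a stated unit, and it was used only to rank peaks within a list. The 4 input samples were not analysed here.

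Peaks overlapping the window by at least 1 bp were taken, and lengths were clipped to it. Depth being unknown, exact Clopper-Pearson intervals (95%) cover counting error over peaks only. Named peaks were the widest, first and last of each list and those at borders. The window, comparisons and alternatives were chosen with earlier results of these data known. The alternatives were better-scoring peaks, equal numbers of top-scoring peaks, peaks merged within 1 or 5 kb, 50% overlap, single active marks, a wider window and shifted windows. The code was tested on simulated data. Python 3.11.15, numpy 2.4.6, pandas 2.3.3, scipy 1.17.1 and matplotlib 3.10.9 were used.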

Additional observations from a re-analysis of the deposited data

How the results depend on the processing

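No paired analysis was possible because the lists are calls on pooled replicates without a test over samples, so leaving out a replicate was not possible either. Lengths and ratios were counted as moved beyond 1.5 times, borders beyond 1 kb, and shares of peaks outside their 95% interval. Where the alternative does not itself make a change, the cause was not tested. The log2 ratio of fetal to adult H3K27me3 length stayed between 0.61 and 1.21 under all 5 alternatives, and the ranks among windows of equal length held when the windows were shifted.

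With the better-scoring peaks of each list, the log2 ratio was 0.21 for H3K27ac, with its sign changed, and -0.87 for H3K4me3. The length under both H3K4me3 and H3K27me3 was then 0 bp at both stages, since 1 fetal and 2 adult H3K4me3 peaks were left. The active stretch began at 96166716 in the fetal and ended at 96182096 in the adult lists. The shares with a counterpart were 100.0% for fetal and 50% for adult H3K4me3 and 100.0% for adult H3K27ac. With equal numbers of top-scoring peaks, the log2 ratio of H3K4me1 was 1.57 and its shared length 3.28%, and 33.3% of fetal and 14.3% of adult H3K4me1 peaks had a counterpart.

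Merging fills the gaps between peaks. Within 5 kb, the log2 ratio of H3K4me3 was 0.18, with its sign changed, and the length under both H3K4me3 and H3K27me3 was 25220 bp (fetal) and 14065 bp (adult). The adult border and the start of the adult stretch were at 96160327, and the fetal stretch began at 96160216. Counterparts were found for 83.3% of fetal H3K27me3, 44.4% of fetal H3K4me1 and 100.0% of adult H3K4me3 peaks. Within 1 kb the share was 92.9% for adult H3K27me3. The adult stretch, which ended at 96215212 in the unmerged lists, ended at 96213334 within 1 or 5 kb. With 50% of the peak covered, 15.0% of fetal H3K27me3 peaks had a counterpart. Over the whole window, H3K27me3 and H3K4me1 stayed longer in the fetal than in the adult list under the alternatives run. The lengths of these marks inside the active stretch and on either side of it were not rerun. Whether the contrasts between those parts hold under the alternatives was therefore not tested.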

Other observations

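Beyond the window, H3K27me3 continued past the Hoxb13 end and was scarce past the Hoxb1 end. In the 50 kb before the window, 5 fetal peaks covered 28193 bp (56.4%) and 28 adult peaks 10737 bp (21.5%). In the 50 kb after it, 3 fetal peaks covered 4934 bp (9.87%) and the adult list had none. No H3K4me3 or H3K27ac peak was listed in either flank at either stage. Fetal H3K4me1 covered 738 bp before and 801 bp after it, with 3 peaks each, and adult H3K4me1 had none in either.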
